A study of Mus musculus with 20 samples.

Results

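The annexins are calcium-dependent proteins that bind acidic membrane phospholipids, and 10 of them are described here: Anxa1, Anxa2, Anxa3, Anxa4, Anxa5, Anxa6, Anxa7, Anxa8, Anxa11 and Anxa13. Annexins share a core of repeats that in most of them docks on membranes when calcium rises, while their N-terminal tails differ and recruit partners such as S100 proteins. In epithelia they are known for roles in vesicle traffic, membrane organisation and the resealing of damaged membranes, and Anxa13 is known as an annexin of the intestinal epithelium. Members were taken as every probe that the array design names for 1 of these genes, which gave 27 probes of 56605 and 10 genes of 24813 with a symbol. Anxa10 was left out by that choice.

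Transcripts were measured in 20 intestinal tissue samples of C57BL6/j mice on 1-colour Agilent arrays, 1 array per sample. The study describes separate mice in each group, and each sample carries an animal number of its own. The 6 Cre control mice carried VillinCreER, a tamoxifen-inducible Cre recombinase driven by the Villin promoter and active in the gut epithelium, and the 6 BRAFV600E mice carried in addition 1 inducible allele of the mutant kinase BrafV600E. Both groups were 8 to 12 weeks old, received 3 daily doses of 2 mg tamoxifen and were sampled 3 days after the last dose, so both had Cre and tamoxifen. Mice of the second experiment first received 2 injections of 100 microlitres of tamoxifen at 10 mg/ml, a different dosing from the first experiment. The 4 MEKi mice then received the MEK inhibitor PD184352 and the 4 Vehicle mice the carrier alone, in 3 daily injections. Their Braf mutant genotype was taken from the study's figure legends, since the labels do not give it, and the methods give 8 to 12 weeks as the age at which Braf mutant mice were induced in general, without naming these mice. MEK is the kinase directly below BRAF, so the second pair of groups asks whether a transcript depends on MEK in tissue that expresses the mutant. The samples were pieces of whole tissue, and fewer cells of a type cannot be told apart from less RNA per cell.

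Levels are given on the log2 scale as the processed signal minus the array's 75th percentile, so 0 is a signal at that percentile. They are compared between groups for 1 probe at a time and never between probes. The arrays lay on 3 slides: all Cre control arrays shared slide 1 with the first 2 BRAFV600E replicates, the other 4 BRAFV600E replicates filled part of slide 2, and the MEKi and Vehicle arrays made up rows 1 and 2 of slide 3, so that row and treatment cannot be told apart there. Between 60.8% and 76.8% of spots per array were well above background, and 0 were saturated. Vehicle replicate 2 stood apart, with a mean level of 7.47 over 4 exocrine pancreas genes against −4.52 to −4.41 on the other Vehicle arrays. The Y-linked genes, which only males carry, were high on all MEKi arrays and only on some Vehicle arrays, with mean levels from −1.29 to −0.96 and from −6.25 to −1.21. Sex was thus not balanced between the MEKi and Vehicle groups and is partly tied to the treatment. The labels do not give it. The ERK output genes Dusp6, Spry4, Etv4 and Etv5 were all called higher in BRAFV600E and lower under MEKi, while the probe for Braf, which does not separate the alleles, was called in neither comparison. All 8 epithelial markers passed the filter on low signals in both comparisons, with a mean level over the list of at least 5.91 on every array.

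In BRAFV600E against Cre control, the annexins that passed the test in the main setting all rose. Anxa13, Anxa3, Anxa5, Anxa4 and Anxa2 were called higher, which is 5 of 10 members against a background of 6.21% of all 18879 tested genes called higher (12.5% called in either direction). None of the 10 was called lower by limma, against a background of 6.3%, while 2 were lower at an unadjusted p under 0.05 and Anxa7 was called lower under some alternative settings, given with its probes. The median log2 fold change of the members was 0.63, and that of all tested genes was −0.02. Under MEKi the median of the members was −0.50, against 0.04 for all 19069 tested genes. Only Anxa13 passed the test there, as 1 of 10 called lower against a background of 0.902%, while 0 were called higher against 1.11% (2.01% in either direction). At an unadjusted limma p under 0.05, 5 were lower and 0 higher. The share of all genes at that threshold was not counted, for this or any other unadjusted count given here. In each comparison, the groups did not overlap for 3 of the 10 members, against 7.4% of all genes in BRAFV600E against Cre control and 12.2% in MEKi against Vehicle. All 10 members were tested in both comparisons.

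**Figure D1:**
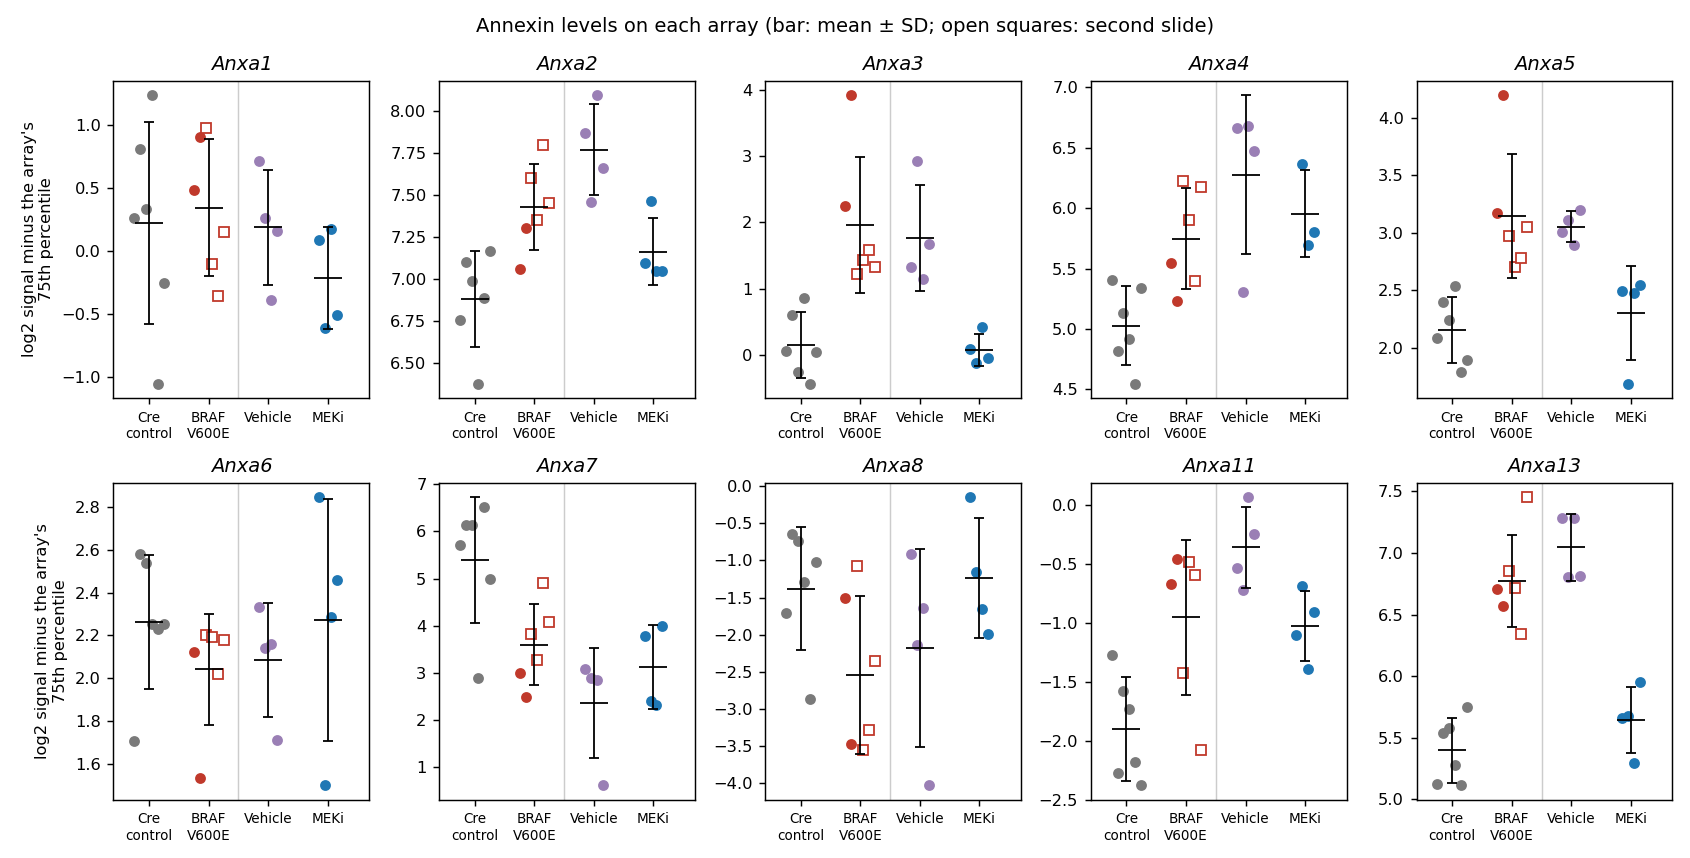
Level of each annexin on each array, as log2 signal minus the array's 75th percentile (y axis, a separate scale in each panel), by group (x axis); points are arrays, open squares are arrays of the second slide, and bars give the mean ± SD. In Anxa13, the 6 BRAFV600E arrays lie between 6.34 and 7.45 and the Cre control arrays at or below 5.75, while the 4 MEKi arrays lie below every Vehicle array.

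**Figure D2:**
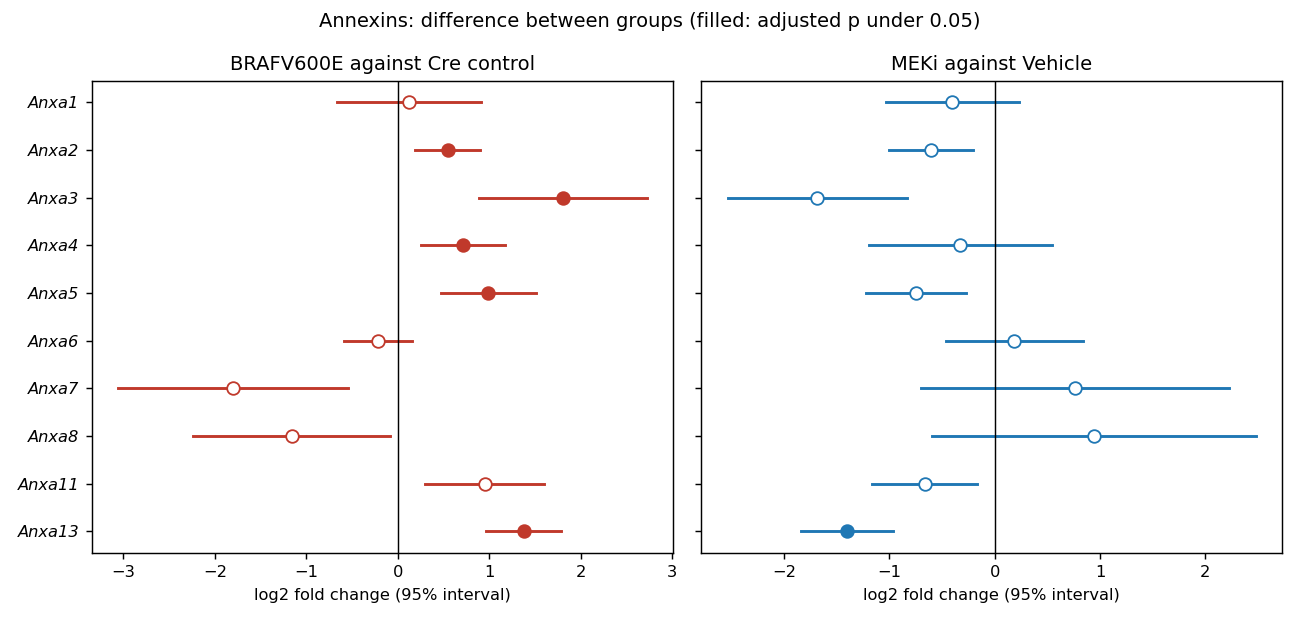
Fitted log2 fold change of the 10 annexins (x axis) with its 95% interval in BRAFV600E against Cre control (left) and MEKi against Vehicle (right); filled points passed an adjusted p of 0.05. On the left 5 points are filled, all to the right of 0, and on the right only Anxa13 is filled, at −1.40.

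Several members are read by more than 1 probe. The probes below are shown because each is a second reading of a member that rose, taken at another place in the transcript than the brightest probe that stands for the gene. A reading frame without a stop codon runs through all 60 bases of each, as it does for most other member probes. They lie, on build mm9, at chr15:58173475-58173534 on the minus strand (Anxa13), chr9:69330846-69331620 on the plus strand (Anxa2, over 775 genomic bases and so across a splice junction), chr5:97253925-97253984 on the plus strand (Anxa3) and chr6:86691859-86691918 on the minus strand (Anxa4). Whether they lie in a coding exon was not checked against an mm9 annotation.
Anxa13: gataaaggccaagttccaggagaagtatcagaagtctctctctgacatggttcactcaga
Anxa2: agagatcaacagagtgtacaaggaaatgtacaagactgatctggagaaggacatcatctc
Anxa3: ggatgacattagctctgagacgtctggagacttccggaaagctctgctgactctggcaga
Anxa4: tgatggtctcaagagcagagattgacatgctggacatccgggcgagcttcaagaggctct

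Anxa13, which is anchored to membranes by a fatty acid and is known for apical transport in enterocytes, gave the smallest adjusted p of the 10 members. Its level ran from 5.11 over a median of 5.41 to 5.75 in Cre control and from 6.34 over 6.71 to 7.45 in BRAFV600E. The lowest BRAFV600E array exceeded the highest Cre control array. The fitted log2 fold change was 1.38 (SE 0.19, limma adjusted p 9.64e-04), or 2.59-fold higher. With slide as a block, and within slide 1 alone, it was 1.24, with limma adjusted p 0.0170 and 0.0223. Both fits give the same estimate, because slide 2 holds no Cre control array.

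The probe of Anxa13 printed above gave a difference of 1.75 (SE 0.21, limma adjusted p over all probes 4.23e-04). It ran from 3.15 to 3.80 in Cre control and from 4.64 to 6.03 in BRAFV600E, so its groups did not overlap either.

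Under MEKi, Anxa13 was at 5.66, 5.67, 5.29 and 5.95 on the 4 arrays, and at 7.28, 6.80, 7.28 and 6.81 in Vehicle. Every MEKi array lay below every Vehicle array, and the gap between the groups was wider than either group's range. On the log2 scale the change was −1.40 (SE 0.19, limma adjusted p 0.0155), a 2.64-fold lower level. The second probe gave −1.55 (SE 0.14, limma adjusted p 0.00498 over all probes). The call was lost without MEKi replicate 1 or without Vehicle replicate 3, with limma adjusted p up to 0.0615, although the log2 fold change stayed between −1.50 and −1.28 over all arrays left out in turn. With the level of the Y-linked genes added to the fit it was −1.64 (limma adjusted p 0.0419).

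Anxa2, which pairs with S100a10 at the plasma membrane and binds plasminogen and its activator, rose by a small amount on its brightest probe. This probe ran from 6.38 over a median of 6.94 to 7.17 in Cre control and from 7.06 over 7.40 to 7.80 in BRAFV600E. All but 1 of the 6 BRAFV600E arrays exceeded the highest Cre control value. This amounted to a log2 fold change of 0.55 (with SE 0.16 and limma adjusted p 0.0478), or 1.46-fold, and the call was lost with slide as a block, where the value was 0.30 (limma adjusted p 0.405; 0.480 within slide 1). It held with Cre control replicate 6 or BRAFV600E replicate 1 left out and was lost with each of the other 10 arrays left out, where limma adjusted p rose to at most 0.0904.

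The probe of Anxa2 printed above showed a larger difference. It ran from 1.41 over 1.51 to 2.02 in Cre control and from 2.70 over 3.02 to 3.60 in BRAFV600E, without overlap. The difference was 1.42 (SE 0.18, limma adjusted p 5.95e-04 over all probes) and 1.56 with slide as a block or within slide 1 (limma adjusted p 0.00478 and 0.0292). The third probe, well above background on 5 of 6 BRAFV600E and 2 of 6 Cre control arrays, gave 0.92 (SE 0.71, limma adjusted p 0.421). The 3 probes thus had 1 direction and differed in size.

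Under MEKi, the brightest Anxa2 probe was at 7.10, 7.46, 7.05 and 7.05, and in Vehicle at 7.87, 7.46, 8.09 and 7.66. Only MEKi replicate 2 reached the Vehicle range. The log2 fold change of −0.61 (SE 0.17) did not pass the test (limma adjusted p 0.135), and neither did the second probe, at −0.95 (SE 0.32, limma adjusted p 0.223 over all probes).

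Anxa4, an annexin abundant in secretory and absorptive epithelia that gathers at damaged membranes, was called higher by a narrow margin. It ran from 4.55 over 5.03 to 5.41 in Cre control and from 5.23 over 5.72 to 6.23 in BRAFV600E, and the ranges overlapped in part: 4 of the 6 BRAFV600E arrays exceeded every array of Cre control. The log2 fold change was 0.72 (SE 0.21, limma adjusted p 0.0441), 1.65-fold higher. It did not pass with slide as a block, at 0.36 (limma adjusted p 0.428; 0.442 within slide 1), and it was lost in 8 of the 12 fits with 1 array left out. Those were the fits without Cre control replicates 2, 3, 4 or 5 or BRAFV600E replicates 1, 3, 4 or 6, with limma adjusted p of at most 0.0883. The printed probe gave 0.83 (SE 0.21, limma adjusted p 0.0269 over all probes), and 0.99 with slide as a block (limma adjusted p 0.0721). Another probe gave 0.33 (SE 0.30, limma adjusted p 0.495), and the last was mostly not well above background.

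Under MEKi, Anxa4 was at 6.37, 5.70 and 5.80 on 3 arrays, since the spot of MEKi replicate 1 was marked as an outlier and left out. Vehicle replicates were at 6.66, 5.31, 6.68 and 6.47. The low Vehicle value was that of replicate 2, the array with the exocrine pancreas signal, and it placed the Vehicle group around the MEKi values. The fitted log2 fold change was −0.33 (SE 0.37, limma adjusted p 0.737) with this array and −0.65 (SE 0.21, limma adjusted p 0.202) without it.

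Anxa5, the phosphatidylserine-binding annexin used to stain dying cells, forms lattices on membranes and promotes their repair. It ran from 1.79 over 2.16 to 2.54 in Cre control and from 2.71 over 3.01 to 4.19 in BRAFV600E. The groups did not overlap, and the highest value was that of BRAFV600E replicate 2. On the log2 scale the change was 0.99 (SE 0.24, limma adjusted p 0.0201), 1.99-fold higher, and 1.53 with slide as a block or within slide 1 (limma adjusted p 0.00666 and 0.0345). Without BRAFV600E replicate 2 it was 0.78 (SE 0.16, limma adjusted p 0.0152).

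Under MEKi, Anxa5 was at 2.50, 1.69, 2.48 and 2.55, and in Vehicle at 3.01, 3.11, 2.90 and 3.20. All MEKi arrays lay below all Vehicle arrays. The log2 fold change of −0.75 (SE 0.21) did not pass the test over all genes (limma adjusted p 0.125).

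Anxa3, a small annexin abundant in neutrophil granules and also made by epithelia, had the largest positive fitted change of the members. It ran from −0.43 over 0.05 to 0.86 in Cre control and from 1.23 over 1.50 to 3.91 in BRAFV600E. No array overlapped, and the 2 highest values, 3.91 and 2.24, were those of the BRAFV600E arrays on slide 1. This amounted to a log2 fold change of 1.81 (with SE 0.42 and limma adjusted p 0.0176), or 3.49-fold. With slide as a block or within slide 1 it was 2.93 (limma adjusted p 0.00188 and 0.0159), and without BRAFV600E replicate 2 it was 1.41 (SE 0.26, limma adjusted p 0.00810).

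The printed probe of Anxa3 gave 1.99 (SE 0.46, limma adjusted p 0.0198 over all probes), and its groups did not overlap by a narrow margin, from −3.35 to −1.53 in Cre control and from −1.51 to 1.33 in BRAFV600E. Another probe gave 0.40 (SE 0.45, limma adjusted p 0.607), and the other 2 were mostly not well above background. Of the neutrophil markers, 0 of 5 were called by limma (1 lower at an unadjusted p under 0.05), and their median log2 fold change was −0.46. The array with the highest Anxa3, BRAFV600E replicate 2, had the lowest mean level over these markers of all 12 arrays, at −1.69. How neutrophils bear on the Anxa3 signal was not tested in either experiment.

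Under MEKi, Anxa3 was at 0.09, −0.13, 0.42 and −0.06, and in Vehicle at 1.33, 2.92, 1.14 and 1.67. Every MEKi array lay below every Vehicle array, and Vehicle replicate 2 was the highest. The log2 fold change of −1.69 (with SE 0.37 and limma adjusted p 0.0663), or 3.22-fold lower, missed the threshold. Without Vehicle replicate 2 the spread shrank and the value was −1.30 (SE 0.19, limma adjusted p 0.0260). The mean over the neutrophil markers on that array was −0.17, the second highest of the experiment after Vehicle replicate 1 at 0.68, where Anxa3 was at 1.33.

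Anxa1, known as a substrate of receptor tyrosine kinases and as a ligand of formyl peptide receptors on leukocytes, did not pass the test. It ran from −1.05 over 0.30 to 1.23 in Cre control and from −0.35 over 0.32 to 0.97 in BRAFV600E. The Cre control range held every BRAFV600E array. The log2 fold change was 0.12 (95% interval −0.66 to 0.91, limma adjusted p 0.858). A second probe, printed 10 times per array, gave 0.08 (SE 0.35). Under MEKi it was at 0.08, −0.61, 0.18 and −0.51 against 0.71, 0.26, −0.39 and 0.16 in Vehicle, a log2 fold change of −0.40 (95% interval −1.04 to 0.23, limma adjusted p 0.542).

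Anxa6, the largest annexin, with a duplicated core, is known as a scaffold that dampens RAS signalling at the membrane, and it did not pass the test either. It ran from 1.71 over 2.25 to 2.58 in Cre control and from 1.53 over 2.15 to 2.20 in BRAFV600E. The groups overlapped, with a log2 fold change of −0.22 (95% interval −0.59 to 0.15, limma adjusted p 0.421) that turned to 0.59 without scaling between arrays, where the median of all genes was 0.79. Its second probe gave −0.41 (SE 0.20, limma adjusted p 0.199). Under MEKi, Anxa6 was at 2.85, 1.50, 2.29 and 2.46 against 2.33, 2.14, 2.16 and 1.71 in Vehicle, a fitted change of 0.19 (SE 0.28, limma adjusted p 0.815).

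Anxa8, an annexin of squamous epithelia, is read by a single probe that was well above background on all 20 arrays. It ran from −2.87 over −1.16 to −0.64 in Cre control and from −3.56 over −2.82 to −1.08 in BRAFV600E. The ranges overlapped, with a log2 fold change of −1.16 (with SE 0.50 and limma adjusted p 0.137). Under MEKi it was at −0.15, −1.16, −1.66 and −1.99 against −0.92, −2.14, −1.63 and −4.03 in Vehicle, a difference of 0.94 (SE 0.67, limma adjusted p 0.557) that was 0.33 without Vehicle replicate 4 (limma adjusted p 0.837). The stomach and squamous markers Krt5, Krt14, Krt13, Muc5ac and Gkn1 held no called gene in either comparison (at an unadjusted limma p under 0.05, 1 was lower in BRAFV600E and 1 higher under MEKi), and no MEKi or Vehicle array had Gkn1 well above background.

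Anxa11, which tethers RNA granules to lysosomes and binds the calcium sensor Pdcd6 and S100a6, had a fitted difference that missed the threshold. Its brightest probe ran from −2.38 over −1.96 to −1.27 in Cre control and from −2.08 over −0.63 to −0.45 in BRAFV600E, with 4 of 6 BRAFV600E arrays above every Cre control array. The fitted log2 fold change was 0.95 (SE 0.30, limma adjusted p 0.0564). It passed with another background correction, normexp (0.80, limma adjusted p 0.0405), quantile normalization, median centring, no scaling (1.76, limma adjusted p 0.00723), a filter that asks for every array well above background, all arrays in 1 fit and array weights, and likewise without Cre control replicate 1 (1.08, limma adjusted p 0.0405) or without BRAFV600E replicate 6 (1.18, limma adjusted p 0.0157). The second probe gave 0.06 (SE 0.18, limma adjusted p 0.851 over all probes). Under MEKi, the brightest probe was at −1.10, −0.69, −1.39 and −0.91 and in Vehicle at −0.53, −0.72, 0.07 and −0.25. The fitted change was −0.67 (SE 0.22, limma adjusted p 0.178), while the second probe gave −0.63 (SE 0.28, limma adjusted p 0.359).

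Anxa7, or synexin, is known for promoting the fusion of secretory granules and for binding sorcin, and its probes went in opposite directions. The brightest probe, designed on a cDNA clone, ran from 2.89 over 5.92 to 6.52 in Cre control and from 2.49 over 3.55 to 4.90 in BRAFV600E. Cre control replicate 4, at 2.89, lay far below the other Cre control arrays. Its log2 fold change was −1.80 (SE 0.58, limma adjusted p 0.0595). Without that array it was −2.30 (limma adjusted p 0.00532), and without BRAFV600E replicate 5 it was −2.06 (limma adjusted p 0.0431). It was also called lower with all arrays kept, under normexp (−1.68, limma adjusted p 0.0404), quantile normalization (−1.97, limma adjusted p 0.0365), the same stricter filter, all arrays in 1 fit and array weights (−1.95, limma adjusted p 0.0253).

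The second probe of Anxa7, designed on a RefSeq transcript, ran from 1.01 over 1.57 to 1.67 in Cre control and from 2.01 over 2.16 to 2.69 in BRAFV600E. Here the groups did not overlap, with BRAFV600E higher. The difference was 0.82 (SE 0.16, limma adjusted p 0.00993 over all probes), and 0.91 with slide as a block or within slide 1 (limma adjusted p 0.0431 and 0.116). The third probe gave 0.42 (SE 0.19, limma adjusted p 0.173).

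Under MEKi, the second Anxa7 probe was at 1.22, 1.47, 1.43 and 1.41, and in Vehicle at 1.86, 2.30, 2.18 and 2.08. All MEKi arrays lay below all Vehicle arrays. The difference was −0.72 (SE 0.14, limma adjusted p 0.0529 over all probes), whereas the brightest probe gave 0.76 (SE 0.64, limma adjusted p 0.626) with values of 3.79, 2.40, 2.31 and 3.99 against 3.09, 2.89, 2.85 and 0.61, and 0.18 without Vehicle replicate 4 (limma adjusted p 0.919). The third probe gave −0.17 (SE 0.18, limma adjusted p 0.754).

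The brightest Anxa7 probe holds a run of alternating A and G, and so does the probe of each of the 3 genes whose pattern over the 20 arrays was most like it. Likeness was measured as the root mean square difference of log2 levels, centred within each experiment, over 18421 candidate genes. It was 0.0868 for Cdcp1, a transmembrane protein, 0.101 for Snhg15, a host gene of small nucleolar RNAs, and 0.144 for Tdgf1, a co-receptor of Nodal, while the Anxa7 probe itself varied by 1.22 on the same measure. The 30 bases around the longest run in each probe are shown because the run is the sequence these otherwise different probes share, with the run in capitals.
Anxa7: agattcttaAGAGAGAGAGAGctgggagac
Cdcp1: acaggatcaAGAGAGAGAGAGtctgcaagt
Snhg15: ccagagctgGAGAGAGAGAGAtgactcaac
Tdgf1: gagaaaaaAGAGAGAGAGAGAagaaaaact

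Of all 56605 probes, 55 (0.0972%) hold such a run of at least 10 bases, and among the members only this 1 does. In BRAFV600E against Cre control, 52 of the 53 such probes above background were lower, with a median difference of −1.60 and quartiles of −1.93 and −1.19, while 51.1% of the other probes were lower, with a median of −0.01. In MEKi against Vehicle, 3 of 55 were lower, with a median of 0.66 against 0.03. The mean level over 53 of these probes ran from 3.20 to 6.24 in Cre control, where replicate 4 was the lowest, and was 1.46 on Vehicle replicate 4, the lowest of that group. The brightest Anxa7 probe was lowest on the same array of each of these groups. How much of its signal came from Anxa7 transcript was not tested, and the set of probes was chosen after the values were seen. When all probes with the run were left out, an alternative also chosen after seeing the data, the second probe stood for Anxa7: it was called higher in BRAFV600E, at 0.82 (SE 0.16, limma adjusted p 0.00758), and lower under MEKi, at −0.72 (SE 0.13, limma adjusted p 0.0378). The members called then numbered 6 of 10 in BRAFV600E, all higher, and 2 of 10 under MEKi, both lower. With all probes kept, 6.21% of all tested genes were called higher in BRAFV600E and 0.902% lower under MEKi.

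**Figure D3:**
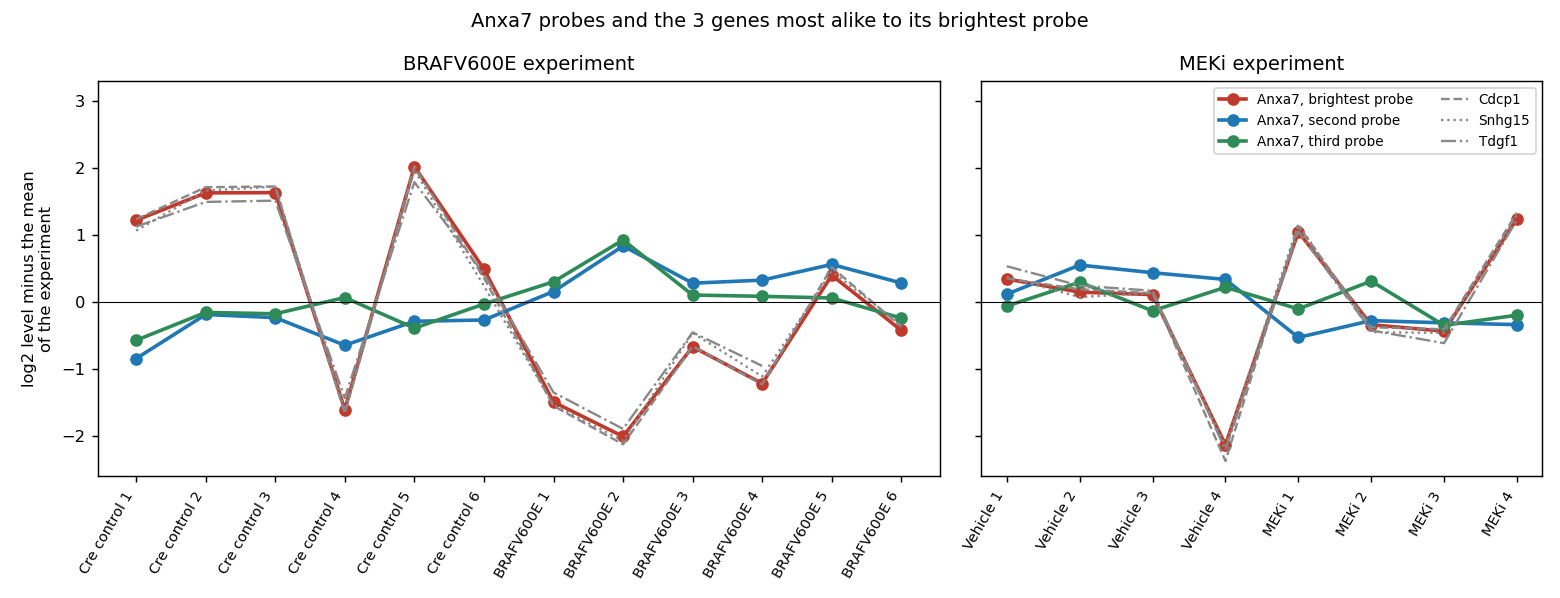
Log2 level minus the mean of the experiment (y axis) on each array (x axis) for the 3 Anxa7 probes (coloured) and the 3 genes most like the brightest of them (grey). The grey lines lie on the red line of the brightest probe, which drops at Cre control replicate 4 and Vehicle replicate 4. There the second probe, at 1.21 and 2.08 before the mean was subtracted, lay inside the range of its group.

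**Figure D4:**
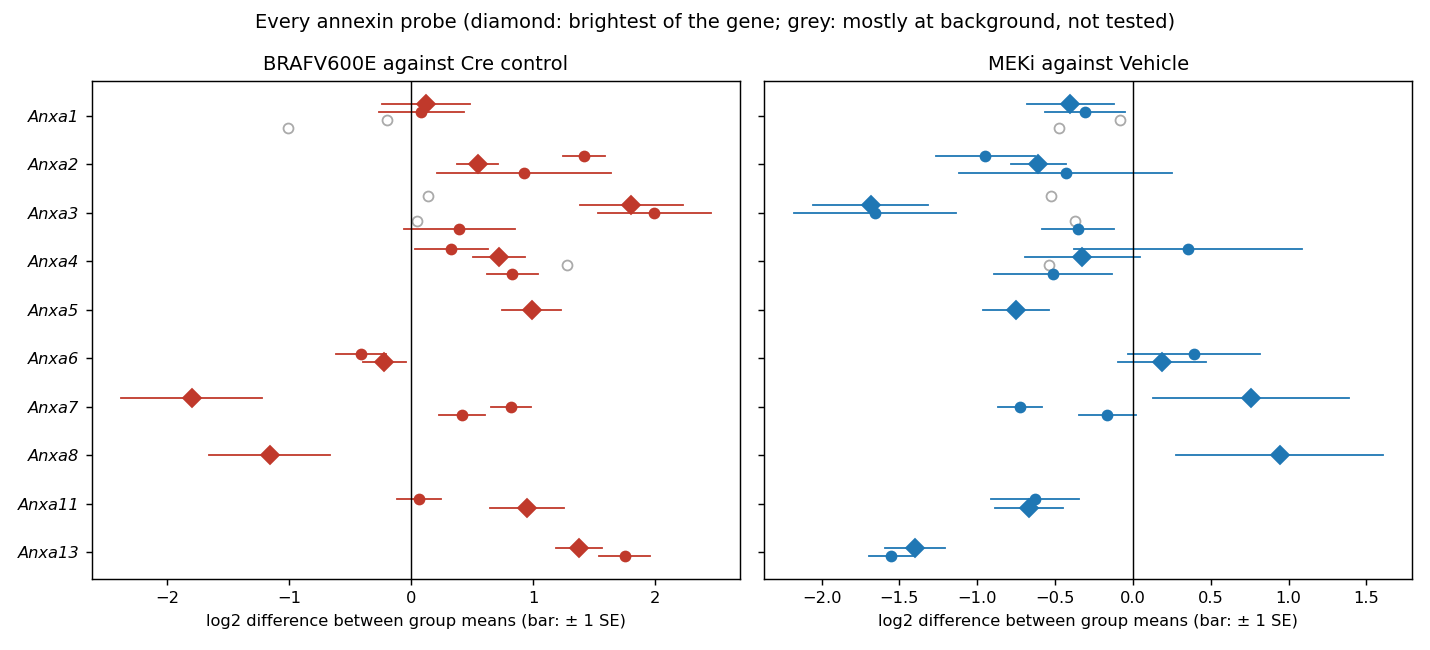
Difference between group means on the log2 scale (x axis, bars ± 1 SE) for every annexin probe, by gene (y axis), in BRAFV600E against Cre control (left) and MEKi against Vehicle (right). Diamonds mark the probe that stands for the gene and grey circles probes that were mostly not above background; the 2 Anxa13 probes lie together at 1.38 and 1.75 on the left, and the 3 Anxa7 probes lie on both sides of 0.

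The genes most like Anxa13 by the same measure, which varied by 0.745, were Anxa9 (0.256), Vstm2l (0.276) and Lmna (0.303), the gene of the nuclear lamins A and C. Those most like Anxa3, which varied by 1.097, were Pparg (0.416), a nuclear receptor of lipid metabolism, Nt5c2 (0.429), a cytosolic nucleotidase, and Alpi (0.430), the alkaline phosphatase of the enterocyte brush border. They were picked for the likeness, so it is a description of these 20 arrays. Of the annexins outside the 10, Anxa9 rose by 1.55 (SE 0.14, limma adjusted p 4.99e-05) in BRAFV600E and fell by 1.25 (SE 0.22, limma adjusted p 0.0318) under MEKi. For Anxa10, which had no Cre control array well above background, the difference was at least 113-fold upward in BRAFV600E, a bound without a test of its own. The fit on its levels as measured gave 7.85 (SE 0.96, limma adjusted p 4.79e-04). Under MEKi the fitted change of Anxa10 was −4.71 (SE 1.48, limma adjusted p 0.167), which did not pass.

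Of 16 genes known as annexin partners, receptors or co-factors in membrane repair, 4 were called higher in BRAFV600E and 0 lower, beside the same background of 6.21% and 6.3%, and their median was 0.23. At an unadjusted limma p under 0.05, 6 were higher and 2 lower, without a count over all genes beside it. The 2 largest were S100 proteins. S100a6, calcyclin, which binds Anxa2 and Anxa11, ran from 3.71 over 4.01 to 4.67 in Cre control and from 6.51 over 6.74 to 7.49 in BRAFV600E, a log2 fold change of 2.68 (with SE 0.21 and limma adjusted p 2.01e-05). S100a11, a partner of Anxa1, rose by 1.68 (SE 0.25, limma adjusted p 0.00153). S100a10, the tail-binding partner of Anxa2, had a fitted change of 0.38 (95% interval 0.01 to 0.76) that did not pass (limma adjusted p 0.155). Sri, the calcium-binding sorcin that binds Anxa7, rose by 1.04 (SE 0.18, limma adjusted p 0.00454). Pdcd6ip, or ALIX, which works with Pdcd6 in membrane repair, rose by 0.87 (SE 0.15, limma adjusted p 0.00427).

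Under MEKi, 15 partners were tested, 2 were called lower and 0 higher, beside a background of 0.902% and 1.11%, and the median was −0.47 (at an unadjusted limma p under 0.05, 6 lower and 0 higher). S100a6 was at 5.35 to 6.01 under MEKi and at 7.16 to 7.64 in Vehicle, a fall of 1.79 in log2 units (SE 0.18, limma adjusted p 0.00501). S100a11 fell by 1.22 (SE 0.21, limma adjusted p 0.0334). Sri and Pdcd6ip did not overlap between the groups either, which held for 12.2% of all genes, and missed the threshold, at −0.84 and −0.47 (limma adjusted p 0.137 and 0.145). The log2 fold change of S100a10 was −0.16 (95% interval −0.61 to 0.30). The probe of Ahnak, a giant scaffold of the Anxa2 and S100a10 complex, also holds a run of alternating A and G and was at −1.49 in BRAFV600E (SE 0.52, limma adjusted p 0.0762) and 0.72 under MEKi.

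**Figure D5:**
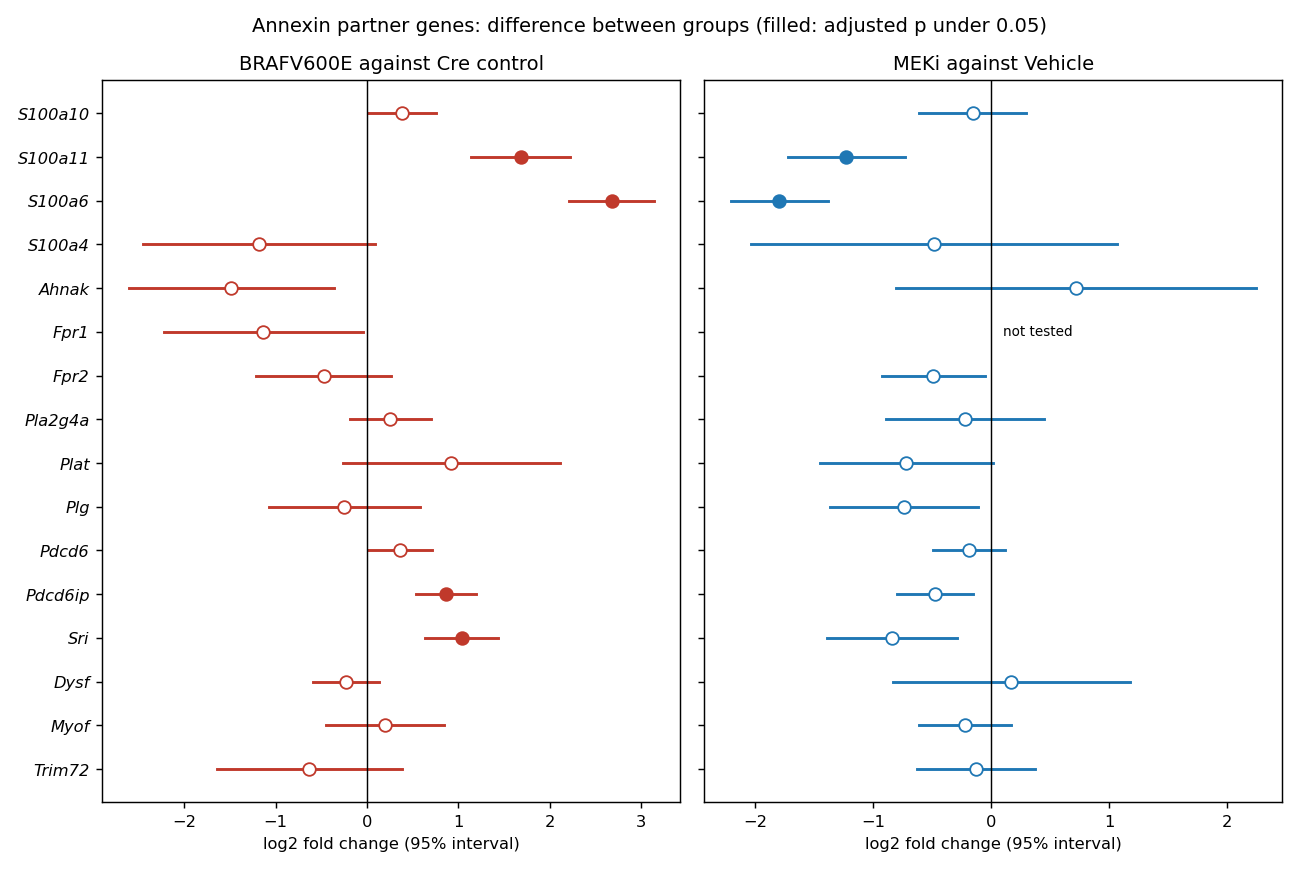
Fitted log2 fold change (x axis) with its 95% interval for the 16 annexin partner genes (y axis) in BRAFV600E against Cre control (left) and MEKi against Vehicle (right); filled points passed an adjusted p of 0.05. S100a11 and S100a6 are filled on both sides, to the right of 0 on the left and to the left of 0 on the right.

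Some markers of several cell types also differed between these groups. Beside the counts below, 6.21% of all tested genes were called higher in BRAFV600E and 6.3% lower. A single call in a short list is not read as a shift of that cell type. In BRAFV600E, 3 of 8 epithelial markers (Cdh1, Krt18, Krt19) and 2 of 6 smooth muscle markers (Actg2, Des) were called higher. Lower were 4 of 6 Paneth, 4 of 6 stem, 3 of 7 goblet, 2 of 6 enteroendocrine, 1 of 5 tuft, 2 of 5 T cell and 2 of 5 macrophage markers, while 1 goblet and 1 of 8 enterocyte markers (Alpi) were higher. The median log2 fold change of the enterocyte markers was −0.42, and at an unadjusted limma p under 0.05, 1 was higher and 3 lower. The mean level over the epithelial markers ran from 5.91 to 6.36 in Cre control and from 6.29 to 6.82 in BRAFV600E, and every one of these markers was well above background on at least 1 array. Over the Paneth markers it ran from 5.54 to 6.68 and from 2.99 to 4.88, without overlap. Over the enterocyte markers it ran from 6.79 to 7.20 and from 4.83 to 7.10, and the lowest value was that of BRAFV600E replicate 2, the array with the highest Anxa3 and Anxa5. No fibroblast, endothelial, B cell, neutrophil or mesothelial marker was called by limma (at an unadjusted p under 0.05, 1 marker each of B cell, neutrophil and mesothelium was lower). Under MEKi, Krt19 was called lower and the stem marker Ascl2 higher, with no other marker called. Of all genes tested there, 0.902% were called lower and 1.11% higher. The part of these shifts in the annexin differences was not tested.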

How the data were processed

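RNA of 20 samples was hybridised to 1-colour Agilent arrays. Per the file headers and labels, the authors extracted spots with Agilent Feature Extraction (10.5.1.1), which subtracted background and wrote a processed intensity on a linear scale, not normalized between arrays. Marks of 0 or 1 for outlying and bright spots, deposited beside the intensity, served as filters. The authors' deposited value table held the same intensity (100% within 0.5%). Control and outlier spots were left out, the signal was put on the log2 scale, each array's 75th percentile subtracted and copies averaged. The probe with the highest mean over 20 arrays stood for a gene and was tested where at least 50% of the comparison's arrays showed it well above background. Symbols came from the array design and a RefSeq table (GRCm38.p6, names only), coordinates from the design (mm9).

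Fits used limma (3.58.1, R 4.3.3) and only the arrays of the comparison, two-sided, without covariates, since the study's methods name limma and state no covariates. Adjusted p is Benjamini-Hochberg over all genes tested and called means under 0.05; p over probes is adjusted over all probes tested. The script was tested on simulated data. Alternatives were normexp (offset 50), quantile, median and no scaling, no filter, a stricter filter (every array well above background), other probe choices, all arrays in 1 fit, array weights, Y-linked signal, array column, slide and each array left out. The number of arrays limits the precision. Members, lists and tests were chosen with earlier results of these data known. Named were all members, Anxa9 and Anxa10, partners called in either comparison, 3 S100 genes, and the 3 genes most like each of the 3 members with the largest change. Ahnak was named after its value was seen. The labels' treatment text describes atorvastatin in all samples, matches no group and was not used. No arrays held identical values.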

Additional observations from a re-analysis of the deposited data

Results flagged for a closer look

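In 39 member and group combinations tested (Anxa4 under MEKi had 3 arrays and was not), 6 held an array whose gap to the next exceeded the 95% limit of Dixon's test for its group size, where chance gives about 1 in 20. BRAFV600E replicate 2 was high in Anxa5, at 4.19 with the next array at 3.17, and low in Anxa6, at 1.53 with the next at 2.02. MEKi replicate 2 was high in Anxa2, at 7.46, and low in Anxa5, at 1.69. Vehicle replicate 2, the array with the exocrine pancreas signal, was low in Anxa4, at 5.31. Vehicle replicate 4 was low in the brightest Anxa7 probe, at 0.612, and also lowest in the mean over the probes with a run of alternating A and G. Leaving these arrays out kept the direction of each member named here in its comparison.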

How the results depend on the processing

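In BRAFV600E against Cre control, Anxa3 and Anxa13 were called higher under every alternative run, with limma adjusted p of at most 0.0491 and 0.0223, and Anxa5 under all but the array column (limma adjusted p 0.0520). The median of the members minus that of all genes lay between 0.48 and 0.82 over 27 settings there, and between −0.71 and −0.46 over 21 settings in MEKi against Vehicle. The 5 members called became 3 without the filter, with every probe tested, with the Y-linked signal, with slide as a block and within slide 1, and 2 with the array column, and ranged from 3 to 5 with 1 array left out. They became 4 with the mean over a gene's probes, 6 with quantile normalization, median centring, no scaling, all arrays in 1 fit and without the probes with alternating A and G, and 7 with normexp, the stricter filter and array weights. These counts take both directions together. They include Anxa7 called lower on its brightest probe with normexp, quantile normalization, the stricter filter, all arrays in 1 fit and array weights. The same holds without Cre control replicate 4 or BRAFV600E replicate 5. Of the members called in the main setting, Anxa2 was called higher in 11 of the 27 alternatives and Anxa4 in 10. Anxa11 was called higher in 9 of the alternatives, and Anxa7 passed in 8, in all but 1 of them lower. The 1 member called under MEKi became 2 with normexp, 3 with array weights, 0 with the array column and 2 without the probes with alternating A and G, and ranged from 0 to 2 with 1 array left out, with 0 without MEKi replicate 1 or Vehicle replicate 3 and 2 without Vehicle replicate 2. Of the partners, 8 were called in BRAFV600E without scaling (4 to 5 with 1 array left out), and under MEKi 1 without scaling, without the filter and with the Y-linked signal, 4 with array weights and 0 with the array column (1 to 2 with 1 array left out). The next paragraph gives the totals over all genes for some of these settings. In BRAFV600E those totals also rose with normexp and without scaling. Counts under the other settings have no share of all genes beside them and are not read as a result about the members.

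Directions that turned were Anxa6 in BRAFV600E without scaling (0.59), Anxa1 in BRAFV600E without Cre control replicate 5 (−0.13) or BRAFV600E replicate 3 (−0.0050; up to 0.32 with 1 array left out), Anxa7 as a mean over its probes under MEKi (−0.043), Anxa7 without the probes with alternating A and G (0.82 and −0.72), Anxa8 under MEKi with the Y-linked signal (−0.0058) and Anxa6 under MEKi without MEKi replicate 1 (−0.0040; up to 0.44 with 1 array left out). The genes called among all 18879 tested were 2363 in BRAFV600E, against 4615 with normexp and 9299 without scaling. They were 1245 with the array column, 1548 with slide as a block, 737 within slide 1 and 1434 to 2850 with 1 array left out. Under MEKi they were 383, against 71 without scaling, 233 without the filter, 1126 with array weights, 53 with the Y-linked signal, 16 with the array column and 75 to 376 with 1 array left out. The median log2 fold change of all genes in BRAFV600E moved to −0.13 with normexp and to 0.79 without scaling. The cause was not tested. No paired analysis was possible because the labels give no replicate numbers shared between groups.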
